A study of Mus musculus with 64 samples.

Results

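The heat shock and J-domain chaperones were followed in whole mouse hearts across the day, in animals with and without the clock transcription factor BMAL1 in their cardiomyocytes. Members were the array probes whose platform gene symbol names a heat shock protein (Hspa, Hspb, Hspd, Hspe, Hsph or Hsp with a number), a J-domain protein (Dnaja, Dnajb or Dnajc) or a subunit of the chaperonin TRiC (Cct with a number). The symbol rule matched 100 probes of 73 genes. Of these, 70 probes of 58 genes passed the filter on dim probes, which asked for detection at p under 0.01 by 4 or more arrays, among 12101 probes on the whole array that passed it. Of the 70, 53 were detected on all 64 arrays and 8 on fewer than 32. All mice were male, of C57Bl/6J background, and lived under 12 h light and 12 h dark, with free access to water and standard chow. The 2 genotypes were wild type littermates and animals whose cardiomyocytes alone lack BMAL1 (labelled CBK, here knockout). The promoter driving that deletion and the age of the mice are not given in the sources used here. Hearts of each genotype were taken every 3 h at 8 zeitgeber times (ZT, counted in hours from lights on), and 4 arrays were run per time. The samples are numbered, but whether every number is its own mouse is not stated, so the p-values cover the spread among arrays, some of which may be technical.

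Chaperones hold unfolded proteins in solution, fold them or pass them on for degradation. Small heat shock proteins bind partly unfolded clients without using ATP. Hsp70 proteins fold clients in cycles of ATP use, which J-domain proteins start and nucleotide exchange factors such as the Hsp110 proteins and Hspbp1 reset, while Hsp60 with Hsp10 and the cytosolic TRiC enclose clients in a chamber. In heart muscle several small heat shock proteins are abundant and lie at the sarcomere, and the stress-inducible genes of all these classes are targets of heat shock factor 1, which binds inverted repeats of the unit GAA.

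Promoter sequences are shown for 5 members on which the results below turn: Hspa1l and Hspb3, the members with the largest rises, Hspe1, which fell together with its neighbour Hspd1, and Hspa1a and Hsph1, whose levels moved together from array to array. Each window runs from 250 bases before to 50 bases after the annotated start (RefSeq, build GRCm38.p6), 5′ to 3′ on the gene's strand. Capitals mark every GAANNTTC or TTCNNGAA, the motif of a pair of heat shock units, and every CACGTG, the E-box that BMAL1 with its partner CLOCK can bind. All of these motifs read the same on both strands, and heat shock motifs may overlap each other.
Hspa1l, chr17:34972453-34972752, plus strand: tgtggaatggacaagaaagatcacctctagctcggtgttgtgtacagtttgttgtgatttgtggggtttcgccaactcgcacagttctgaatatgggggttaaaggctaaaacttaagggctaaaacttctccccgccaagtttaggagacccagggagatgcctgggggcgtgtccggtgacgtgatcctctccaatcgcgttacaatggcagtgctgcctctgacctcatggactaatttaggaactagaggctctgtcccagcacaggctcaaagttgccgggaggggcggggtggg
Hspa1a, chr17:34972107-34972406, minus strand: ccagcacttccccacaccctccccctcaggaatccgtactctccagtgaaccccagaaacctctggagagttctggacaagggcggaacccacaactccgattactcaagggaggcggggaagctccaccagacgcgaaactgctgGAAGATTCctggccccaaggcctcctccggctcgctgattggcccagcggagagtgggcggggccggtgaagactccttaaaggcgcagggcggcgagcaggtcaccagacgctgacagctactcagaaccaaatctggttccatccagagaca
Hspb3, chr13:113663627-113663926, minus strand: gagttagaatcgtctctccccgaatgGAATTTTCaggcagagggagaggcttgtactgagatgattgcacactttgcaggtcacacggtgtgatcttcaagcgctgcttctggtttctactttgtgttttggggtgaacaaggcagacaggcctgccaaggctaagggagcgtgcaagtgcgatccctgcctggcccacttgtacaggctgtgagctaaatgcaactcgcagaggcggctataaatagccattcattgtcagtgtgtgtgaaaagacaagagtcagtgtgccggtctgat
Hspe1, chr1:55087898-55088197, plus strand: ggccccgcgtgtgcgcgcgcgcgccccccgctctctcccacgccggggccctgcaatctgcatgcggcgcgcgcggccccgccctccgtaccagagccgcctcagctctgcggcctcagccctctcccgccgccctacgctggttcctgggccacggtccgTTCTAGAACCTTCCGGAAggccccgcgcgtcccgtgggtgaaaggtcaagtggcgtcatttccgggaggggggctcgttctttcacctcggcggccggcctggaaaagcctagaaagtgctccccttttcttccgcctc
Hsph1, chr5:149636287-149636586, minus strand: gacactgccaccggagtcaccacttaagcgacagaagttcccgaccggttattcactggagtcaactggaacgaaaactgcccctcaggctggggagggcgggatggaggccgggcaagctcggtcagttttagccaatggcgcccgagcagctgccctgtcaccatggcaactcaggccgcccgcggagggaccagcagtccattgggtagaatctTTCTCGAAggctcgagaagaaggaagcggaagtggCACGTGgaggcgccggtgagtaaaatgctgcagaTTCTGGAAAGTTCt
Hspa1a and Hspa1l point away from each other, and their annotated starts lie 547 bases apart. Hspe1 and Hspd1 are also a head-to-head pair: the Hspe1 window shares 285 bases with a window of Hspd1 on the other strand (chr1:55087883-55088182). That shared stretch holds 4 heat shock units in a row, beginning 89 bases before the Hspe1 start. Another Hspd1 window (chr1:55088194-55088493) holds a CACGTG 80 bases before its start. Hsph1 holds 3 units in a row, 36 bases after the start of the window shown, and a CACGTG 2 bases after that start. From the start of a second Hsph1 window the 3 units lie 15 bases after and the CACGTG 19 bases before. Windows were found for 47 of the 58 genes, 62 in all. GAANNTTC or TTCNNGAA occurred in 18 of the 62 windows (16 genes) and in 15.1% of all 32851 promoter windows, and 3 units in a row (GAANNTTC followed by NNGAA, or its reverse complement) in 6 of the 62 (Dnajb6, Hspd1, Hspe1 and Hsph1, 4 genes) and in 0.603% of all windows. The 6 windows with 3 units in a row overlap in pairs (those of Dnajb6, those of Hsph1, and Hspd1 with Hspe1), so they are not separate stretches. CACGTG occurred in 7 of the 62 windows (6 genes) and in 7.15% of all windows. These matches describe the letters only.

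Raw median intensities ranged from 119 to 183 over the wild type arrays and from 126 to 196 over the knockout arrays, and 9237 to 10605 probes per array were detected. The sample numbers split the hearts into 2 sets of 32 arrays, ZT 0, 6, 12 and 18 against ZT 3, 9, 15 and 21. The set was a term in the fits of 24 h and 12 h components, apart from alternatives run without it. Tests below that use group means did not carry it as a separate term. The spread of 4 arrays around their group mean was over 1.5 times that of the median array: wild type ZT6 replicate 1, knockout ZT6 replicate 2 and knockout ZT9 replicates 170 and 206. The probe for Arntl, the gene of BMAL1, had a fitted 24 h amplitude (log2) of 1.59 in wild type and of 0.58 in knockout, with a 24 h mean difference of 0.07 ± 0.08 (SE). Where that probe lies relative to the deleted part is not known, so its mean does not check the deletion.

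The first comparison asked whether the level averaged over the day differed between genotypes, as the design's comparison of fitted parameters implies. Levels are log2 intensities, differences are knockout minus wild type, and the test was limma's moderated test on the fitted 24 h means with p-values adjusted over all 12101 probes, called at 0.05. Of the 70 members, 19 probes (18 genes) rose and 11 probes (9 genes) fell, 42.9% in all. Over all probes 34.4% were called, 17% higher and 17.4% lower, so the share of members called lower (15.7%) was near the background and the share called higher (27.1%) was above it. The median difference was 0.04 over the members and -0.01 over all probes. Rises made up the calls among the small heat shock proteins (4 of 6 probes, none lower) and TRiC (4 of 7, none lower). Both calls among the 3 Hsp60 and Hsp10 probes were falls, as were both among the 10 DNAJB probes. The calls, though not the directions of the called members, depended on the scaling: with arrays scaled by their median in place of quantile normalization, 23 members were higher and 2 lower, against 2969 (24.5%) and 824 (6.81%) of all probes. All 19 rises kept their call there, and of the 11 falls only those of Dnajb5 and Dnajb9 did.

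**Figure D1:**
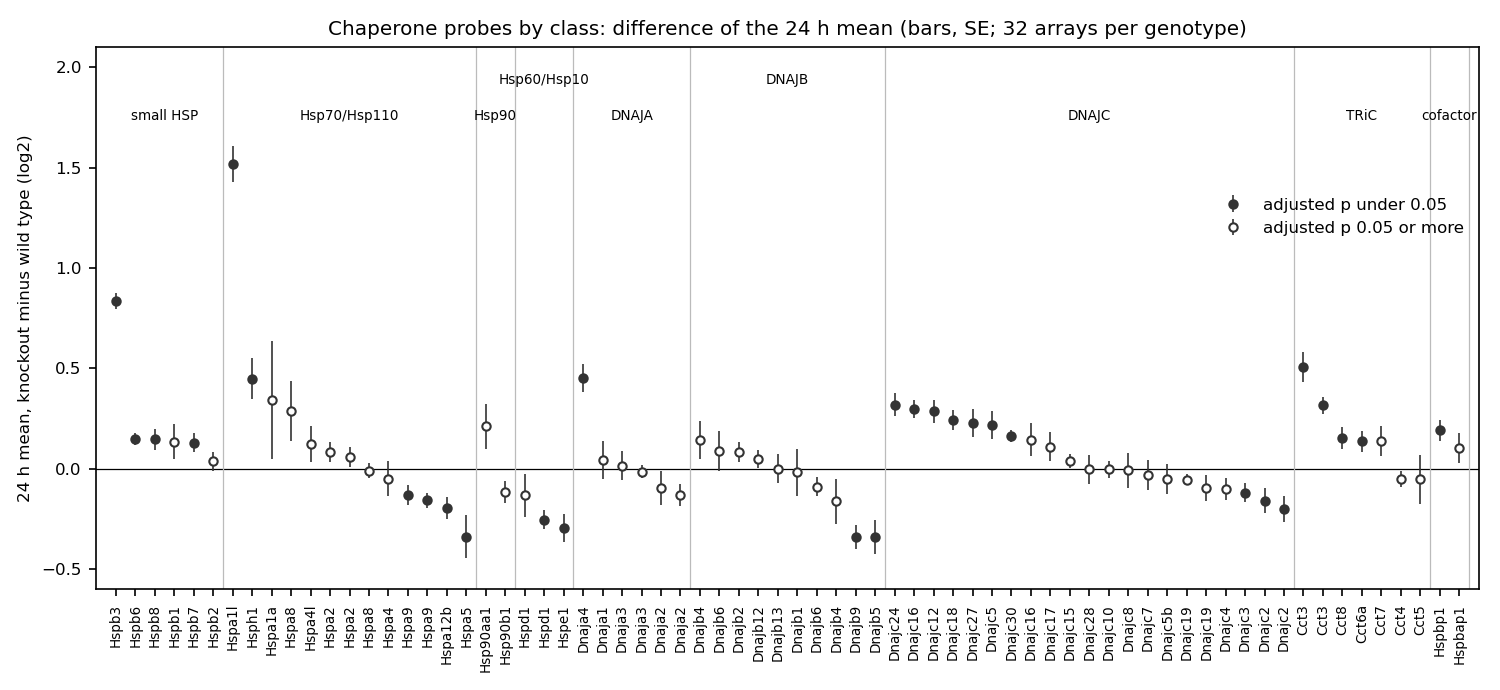
Difference of the fitted 24 h mean (knockout minus wild type, log2) of each of the 70 chaperone probes, grouped by class and ordered by size within a class; points are estimates from 32 arrays per genotype, bars their SE, and filled points passed the adjusted p of 0.05. Hspa1l (1.52) and Hspb3 (0.84) stand above the other probes, whose differences lie between -0.34 and 0.51.

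Among the small heat shock proteins Hspb3, a muscle member of the class that forms a complex with Hspb2, rose at every time of day. Its level ran from 8.49 through a median of 8.88 to 9.11 over the 32 wild type arrays and from 9.30 through 9.73 to 10.03 over the 32 knockout arrays. The genotypes did not overlap, which held for 53 of the 12101 probes (0.438%) and for no other member. The 24 h mean was 0.84 ± 0.04 (SE) higher in knockout, a 1.79-fold rise (limma, adjusted p = 1.5e-26), and the 8 single time points gave between 0.62 at ZT6 and 1.06 at ZT21. It was 0.78 in ZT 0, 6, 12 and 18 alone and 0.89 in the other set.

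The rest of this class moved much less. Hspb6 (Hsp20), a target of protein kinase A in muscle, had a median of 14.56 in wild type and 14.72 in knockout, with 14 knockout arrays above the highest wild type array (difference 0.15 ± 0.03, adjusted p = 4.3e-05). Hspb8, which works with Bag3 in the removal of damaged filamin, rose by 0.15 ± 0.05 (adjusted p = 0.025). Its call was lost without the time set term and in each time set alone. Hspb7, a cardiac and skeletal muscle member, rose by 0.13 ± 0.05 (adjusted p = 0.023). In ZT 3, 9, 15 and 21 alone the calls of Hspb6 and Hspb7 were lost. The ranges of Hspb7 overlapped widely, from 12.43 to 13.23 in wild type and from 12.43 to 13.34 in knockout. Hspb1 (difference 0.13 ± 0.09) and Hspb2 (0.04 ± 0.05) did not pass. Cryab, the related small heat shock protein outside the symbol rule, differed by 0.05 and did not pass either.

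In the Hsp70 and Hsp110 class 2 of 13 probes rose and 4 fell. Hspa1l, an Hsp70 best known from testis that lies beside Hspa1a in the genome, had the largest difference of any member. Its wild type arrays ran from 5.69 through a median of 6.76 to 7.51 and its knockout arrays from 7.40 through 8.39 to 9.10. Only 1 knockout array, at ZT12, lay inside the wild type range, and the other 31 lay above it. The fitted difference was 1.52 ± 0.09, or 2.87-fold (limma, adjusted p = 7.9e-23). It ranged from 1.16 at ZT12 to 1.80 at ZT18, and was 1.46 and 1.58 in the 2 time sets. Without background correction the difference was 0.90 (adjusted p = 1.9e-23), so its size, though not its call, depended on how the background of this moderately bright probe was removed.

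**Figure D2:**
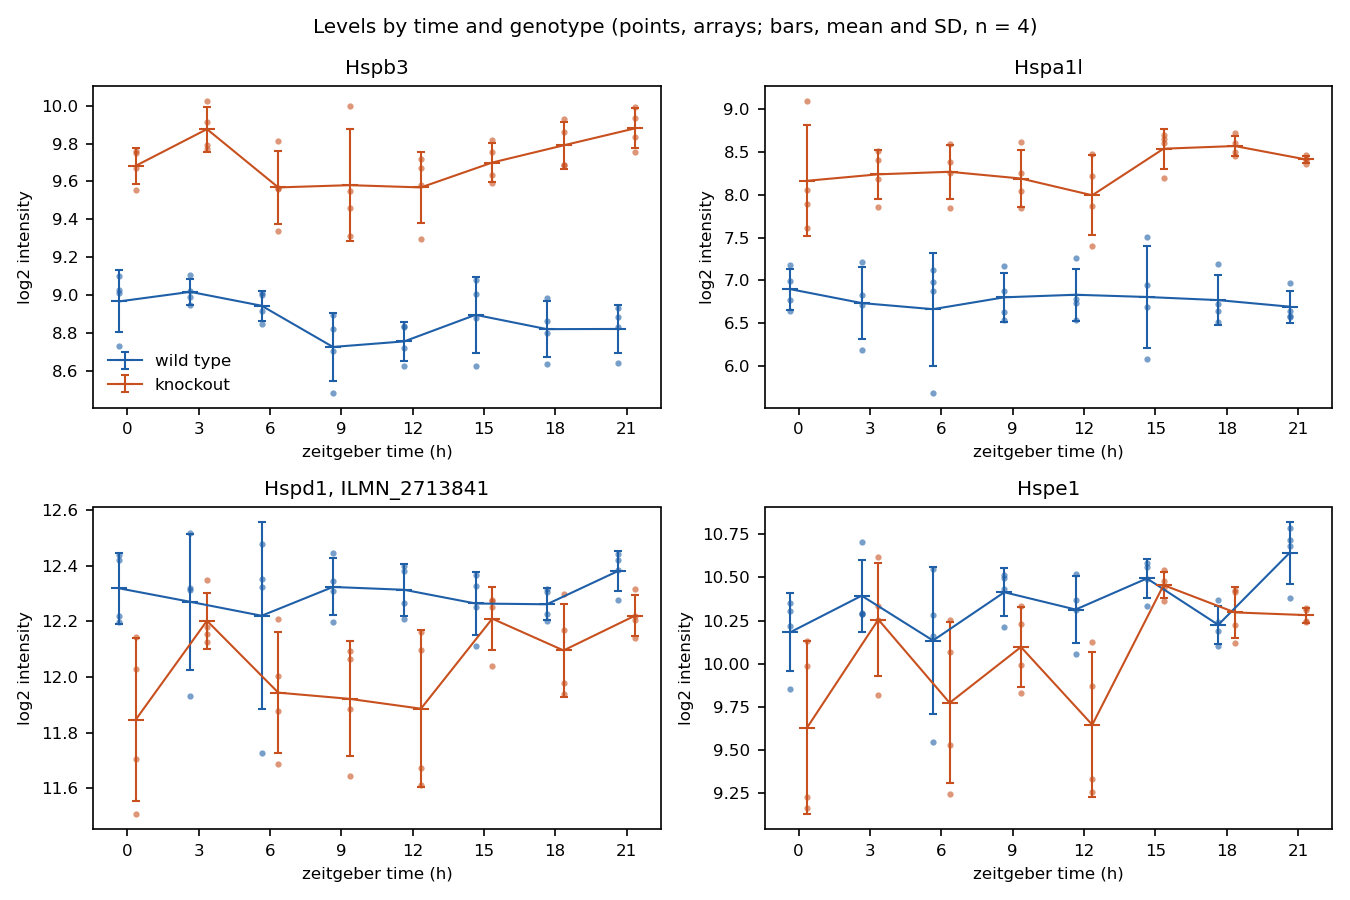
Log2 intensity of Hspb3, Hspa1l, Hspd1 (probe ILMN_2713841) and Hspe1 against zeitgeber time (h) in wild type and knockout hearts; points are single arrays, lines join the means of 4 arrays and bars are SD. Knockout exceeds wild type at all 8 times for Hspb3 and Hspa1l, and lies below it at 8 times for Hspd1 and at 7 for Hspe1.

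Hsph1, the Hsp110 nucleotide exchange factor, was the other riser of this class. It ran from 9.03 through 9.79 to 10.72 in wild type and from 8.70 through 10.35 to 10.99 in knockout, so the groups overlapped, and 4 knockout arrays exceeded the wild type maximum. The difference was 0.45 ± 0.10 (adjusted p = 3.2e-04), higher at 7 of 8 times and -0.09 at ZT12. In ZT 0, 6, 12 and 18 alone it was 0.38 and did not pass (adjusted p = 0.069), and in the other set it was 0.52 and passed.

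The falls in this class were in the organelle members and an atypical one. Hspa5 (BiP), the Hsp70 of the endoplasmic reticulum, ran from 5.93 through 7.32 to 8.03 in wild type and from 5.83 through 6.98 to 7.60 in knockout. Its difference was -0.34 ± 0.11 (adjusted p = 0.0094). It was -0.53 in ZT 0, 6, 12 and 18 alone and -0.15, not passed, in the other set, and with median scaling it was -0.26 with an adjusted p of 0.051. Hspa9 (mortalin), the mitochondrial Hsp70, fell by 0.16 and 0.13 in its 2 probes, and the second lost its call without any one of 14 single arrays. Hspa12b, an atypical member enriched in endothelium, fell by 0.19 ± 0.05 (adjusted p = 0.0025). Neither of these kept its call with median scaling.

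Constitutive Hspa8, the main cytosolic Hsp70, was among the brightest members. Its brighter probe had a median of 14.44 in wild type and 14.48 in knockout and differed by -0.01 ± 0.04, and its dimmer probe by 0.29 ± 0.15, which did not pass (adjusted p = 0.13). The probes of Hspa2, Hspa4 and Hspa4l differed by between -0.05 and 0.12 and did not pass. Stress-inducible Hspa1a is described with its array-to-array spread below.

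Neither Hsp90 probe passed: Hsp90b1 (Grp94), of the endoplasmic reticulum, differed by -0.12 ± 0.05 (adjusted p = 0.097) and inducible Hsp90aa1 by 0.21 ± 0.11 (adjusted p = 0.14). Hspd1 (Hsp60) and Hspe1 (Hsp10), which together form the mitochondrial folding chamber, both fell. The brighter Hspd1 probe ran from 11.73 through 12.32 to 12.52 in wild type and from 11.51 through 12.11 to 12.35 in knockout. Below the lowest wild type array, ZT6 replicate 1, lay 6 knockout arrays, and the others overlapped. The 6 were ZT0 replicates 6 and 8, ZT6 replicate 2, ZT12 replicates 19 and 22, and ZT9 replicate 206. The difference was -0.25 ± 0.05 (adjusted p = 1.7e-05), -0.34 in ZT 0, 6, 12 and 18 alone and -0.17 in the other set.

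Hspe1 ran from 9.55 through 10.34 to 10.78 in wild type and from 9.17 through 10.23 to 10.62 in knockout, with a difference of -0.30 ± 0.07 (adjusted p = 5.9e-04). Its difference was -0.38 and -0.21 in the 2 sets, and it passed in both. At ZT0 the 4 wild type arrays of Hspe1 read 9.85, 10.22, 10.31 and 10.35, and the 4 knockout arrays 9.17, 9.23, 9.99 and 10.13. At ZT18 the knockout mean (10.30) was not below the wild type mean (10.23). The knockout means of Hspd1 at ZT0 and ZT12 were 11.85 and 11.89 and those of Hspe1 9.63 and 9.65. These were the lowest 2 of the 8 for each gene. The lowest Hspe1 arrays were knockout replicates 8, 6, 2, 22, 19 and 32 (9.17 to 9.53) and wild type replicate 1 (9.55). Every other array read 9.82 or more. With wild type replicate 30 (10.06), these arrays carry the lowest sample numbers, all at ZT 0, 6 or 12, and most are knockout. How far sample number entered the differences in the set with these times was not tested. With median scaling the differences were -0.15 for Hspd1 (adjusted p = 0.060) and -0.19 for Hspe1 (adjusted p = 0.080). The dimmer Hspd1 probe differed by -0.13 ± 0.11 and did not pass. It was lower in knockout at 6 of the 8 times. At ZT0 and ZT12 its differences were 0.64 and 0.14, opposite to the -0.47 and -0.43 of the brighter probe. Knockout ZT0 replicates 6 and 8 were high on it, at 9.87 and 9.93 against 8.36 and 8.99. On the brighter probe they were low, at 11.51 and 11.71 against 12.03 and 12.14. Knockout replicate 2 (9.89) and wild type replicate 1 (9.96) were also high on the dimmer probe, but knockout replicate 32 (8.14) was low. Hspd1 and Hspe1 lie beside each other and share the promoter stretch with 4 heat shock units shown above.

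Among the type A and B J-domain proteins, the closest partners of cytosolic Hsp70, Dnaja4 rose. It ran from 8.52 through 9.25 to 9.64 in wild type and from 8.45 through 9.66 to 10.26 in knockout, with 17 knockout arrays above the wild type maximum. The difference was 0.45 ± 0.07 (adjusted p = 2.7e-07), in the same direction at all 8 times, and 0.59 and 0.31 in the 2 sets. It was largest at ZT0 (0.87) and ZT12 (0.68). The highest knockout arrays at ZT0, ZT6 and ZT12 were replicates 8 (10.26), 2 (10.07) and 19 (9.92), all of low sample number. Wild type replicate 1 gave the wild type maximum, while knockout replicate 32 (9.28) and wild type replicate 30 (8.64) were lowest in their groups. How far sample number entered the Dnaja4 difference was not tested. Dnajb1, the major stress-inducible Hsp40, had a median of 9.83 in wild type and 9.80 in knockout (difference -0.02 ± 0.12, adjusted p = 0.92). The probes of Dnaja1, Dnaja2 and Dnaja3 did not pass.

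Dnajb9 (ERdj4), a J-domain partner of BiP in the endoplasmic reticulum, fell at all 8 times. It ran from 9.86 through 10.31 to 10.53 in wild type and from 8.87 through 10.01 to 10.33 in knockout, with a difference of -0.34 ± 0.06 (adjusted p = 9.1e-06). The lowest values, 8.87 and 8.93, came from knockout ZT9 replicates 206 and 170, both among the arrays with a wide spread. Without the 4 such arrays the difference was -0.26 (adjusted p = 7.4e-07). Dnajb5 fell by 0.34 ± 0.09 (adjusted p = 0.0011), by 0.52 in ZT 0, 6, 12 and 18 alone and by 0.16, not passed, in the other set. Without background correction its difference was -0.13 and passed.

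The DNAJC proteins share only the J domain and sit in many compartments, and 7 of their 21 probes rose while 3 fell. Dnajc24, which takes part in the synthesis of diphthamide on elongation factor 2, rose by 0.32 ± 0.06 (adjusted p = 6.2e-06), with 15 of 32 knockout arrays above the wild type maximum. Dnajc16 rose by 0.30 ± 0.04 in its brighter probe (adjusted p = 9.8e-08), while the dimmer one, detected on 36 arrays, differed by 0.15 ± 0.08 and did not pass. Dnajc12, a co-chaperone of the aromatic amino acid hydroxylases, rose by 0.29 ± 0.06 (adjusted p = 3.2e-05). Dnajc18 (0.24), Dnajc27 (0.23), Dnajc5 (0.22), the cysteine string protein of secretory vesicles, and mitochondrial Dnajc30 (0.16) rose as well. Dnajc2, which assists folding at the ribosome, fell in both probes, by 0.20 ± 0.06 and 0.16 ± 0.06. Dnajc3 (p58IPK), of the endoplasmic reticulum, fell by 0.12 ± 0.05 with an adjusted p of 0.0497, a call lost without any one of 43 single arrays. The weaker Dnajc2 probe lost its call without any one of 27. Dnajc19 and Dnajc15, of the mitochondrial import motor, differed by -0.05 in the Dnajc19 probe detected on every array and by 0.04 and did not pass.

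Cct3, a subunit of TRiC, which folds actin and tubulin, rose in both of its probes. The brighter probe ran from 9.94 through 10.24 to 10.67 in wild type and from 10.16 through 10.57 to 11.01 in knockout, a difference of 0.32 ± 0.04 (adjusted p = 4.7e-09). The dimmer probe differed by 0.51 ± 0.08 (adjusted p = 1.1e-07). At ZT0 its difference was 1.10, against 0.24 for the brighter probe. There knockout replicates 6 and 8, of low sample number, read 9.04 and 8.94 and the others 8.18 and 8.28. Knockout replicate 2 (9.17) and wild type replicate 1 (8.60) were the highest of their genotypes, while knockout replicate 32 (7.79) was the lowest. How far sample number entered this difference was not tested. Cct8 rose by 0.15 ± 0.05 (adjusted p = 0.021) and Cct6a by 0.14 ± 0.05 (adjusted p = 0.034), but Cct6a lost its call without any one of 6 single arrays, where its difference stayed between 0.12 and 0.17. Cct4, Cct5, Cct7 and the subunit Tcp1, which the symbol rule leaves out, did not pass. The subunits of this complex therefore gave differences from -0.05 (Cct4 and Cct5) to 0.51. Hspbp1, a nucleotide exchange factor of Hsp70, rose by 0.19 ± 0.05 (adjusted p = 0.0029), and Hspbap1, a binding partner of small heat shock proteins, differed by 0.10 ± 0.07 and did not pass.

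By time set, all 19 rises and all 11 falls had the same direction in both sets. In ZT 0, 6, 12 and 18 alone 14 of the rises and 7 of the falls passed, where 12.1% of all probes were higher and 12.8% lower. In ZT 3, 9, 15 and 21 alone 11 and 4 did, where 10.5% and 9.19% of all probes were. Of the 30 calls, 26 held whichever single array was left out, but 21 were lost in some other setting and 9 were kept throughout. A pair of tested probes was available for 12 genes: in 2 of them (Dnajc16 and Hspd1) only 1 probe passed, and in none did called probes oppose each other.

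The second comparison asked whether the members cycled over 24 h in either genotype. A cosine was fitted per genotype, and the test was limma's F test of its 2 terms. Only Hspb7 passed in wild type, 1 of 70 members (1.43%) against 3.55% of all probes. The wild type means of Hspb7 rose from 12.60 at ZT3 to 13.04 at ZT18, with 4 arrays between 12.49 and 12.71 at ZT3 and between 12.89 and 13.14 at ZT18. These are the lowest and the highest of the 8 means, and they come from different time sets, between which Hspb7 differed by -0.12 (the set of ZT3 minus that of ZT18, adjusted p = 0.039). The fitted amplitude was 0.18 ± 0.05 with a peak at ZT 17.2 (adjusted p = 0.043). This call was lost without any one of 16 single arrays, with an adjusted p of up to 0.11, and under 6 of the other settings. In knockout the Hspb7 amplitude was 0.05 ± 0.05.

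No member passed in knockout, against 1.16% of all probes. An unadjusted p under 0.05 was reached by 11 members and by 14% of all probes, so this count was near the background. The smallest p in knockout belonged to Hspb3 (amplitude 0.14 ± 0.04, peak ZT 21.7, adjusted p = 0.16). No member differed in rhythm between genotypes either (0.24% of all probes), and none had an unadjusted p under 0.05 in that test, against 4.57% of all probes. Below Hspb7 in wild type came Dnajc24 (amplitude 0.20 ± 0.06, adjusted p = 0.091), Hspa2 (0.16 ± 0.05, adjusted p = 0.11) and Dnajb6 (0.16 ± 0.05, adjusted p = 0.11). Amplitudes of the 70 members ranged from 0.01 to 0.51 with a median of 0.08 in wild type and from 0.02 to 0.67 with a median of 0.09 in knockout.

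**Figure D3:**
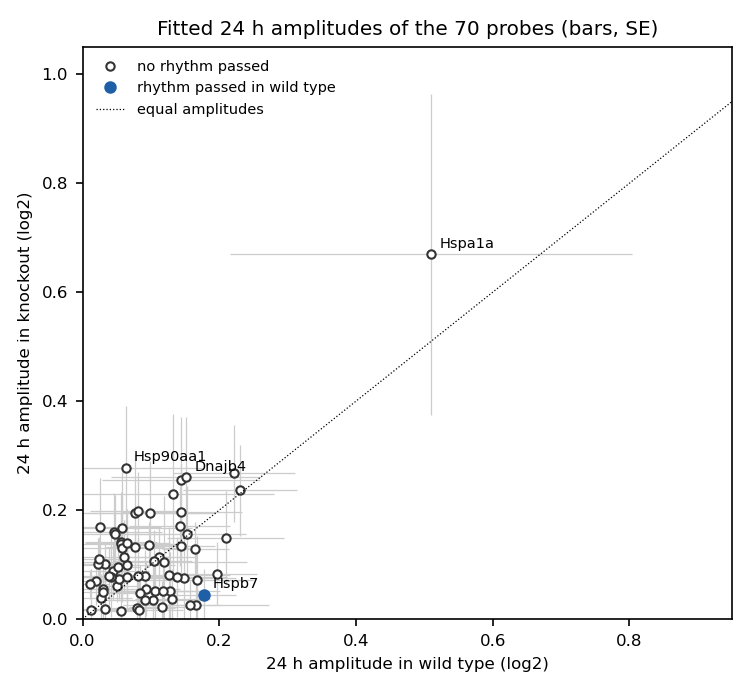
Fitted 24 h amplitude (log2) of the 70 chaperone probes in wild type (horizontal) and knockout (vertical); bars are SE, the dotted line marks equal amplitudes and the filled point is Hspb7 (0.18 in wild type, 0.05 in knockout). Hspa1a has the largest amplitudes in both genotypes, 0.51 and 0.67, with SEs of 0.29.

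The remaining classes gave no rhythm that passed. In knockout the smallest adjusted p was 0.20 among the DNAJC probes (Dnajc10), 0.22 in the Hsp70 class (Hspa4l), 0.24 in DNAJA (Dnaja3), 0.27 in Hsp60 and Hsp10 (Hspe1), 0.33 in TRiC (Cct3), 0.37 in Hsp90 (Hsp90aa1), 0.40 in DNAJB (Dnajb4) and 0.41 in the cofactors (Hspbap1). In wild type it was 0.26 in DNAJA (Dnaja2), 0.45 in TRiC (Cct4), 0.58 in the cofactors (Hspbap1), 0.75 in Hsp90 (Hsp90b1) and 0.85 in Hsp60 and Hsp10 (Hspe1). For the difference of rhythm every adjusted p was 0.9997, and the smallest unadjusted p was 0.076, for Dnajc12. A 12 h component, added to the fit, passed for no member and for 0.00826% of all probes. The 6 members with the smallest p there were Dnajc17, Hsph1, Dnajb4, Hspbap1, Dnajc5b and Hspe1, each with an adjusted p of 0.80. An unadjusted p under 0.05 was reached by 8 of the 70 members and 5.95% of all probes, and by 4 of the 62 members detected on 32 or more arrays.

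Differences between the time sets were much more frequent than rhythms. Of the 70 members, 32 (45.7%, against 32.8% of all probes) differed between ZT 3, 9, 15 and 21 and ZT 0, 6, 12 and 18, 21 higher and 11 lower in the first. The coefficients ran from -0.42 for Hspb1 to 0.59 for the brighter Dnajb4 probe. Different probes of a gene could go opposite ways here: the brighter Cct3 probe gave -0.21 and the dimmer one 0.27, and the pair of Dnajb6 probes gave -0.30 and 0.46. The wild type means of the brighter Cct3 probe at successive times, 10.38, 10.14, 10.35, 10.05, 10.51, 10.12, 10.38 and 10.10, alternate with the set. The time sets and the hours they hold cannot be told apart. An F test over the 8 time means, which includes the time set, passed for 3 members in wild type (Cct3, Dnajb6 and Hspb8) and 11 in knockout, against 7.64% and 10.9% of all probes. Of the 11, all but Hspb2 and Dnajc17 (F test, adjusted p = 0.0013 and 0.0024) also differed between the time sets. For Hspb2 and Dnajc17, the latter detected on 23 arrays, the time set term gave adjusted p = 0.45 and 0.064 (limma).

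Hspa1a, the stress-inducible Hsp70, varied most from array to array. Its level ran from 4.53, on an array where it was not detected, to 9.93, and its spread within groups (SD 1.20) was the largest of all members, whose median was 0.25. Detection was reached by 19 of the 32 wild type arrays and by 22 of the 32 knockout arrays. The 4 wild type arrays at ZT0 read 5.46, 5.78, 6.00 and 9.93, and the 4 knockout arrays 5.55, 5.82, 7.77 and 9.37, so within each group the highest array stood far above the lowest. By time, the probe was detected on 8 of 8 arrays at ZT15 and ZT18, on 3 of 8 at ZT9 and on none of 8 at ZT12. The rhythm did not pass in either genotype (amplitude 0.51 ± 0.29 and 0.67 ± 0.29, adjusted p = 0.65 and 0.42), nor did the 24 h mean (difference 0.34 ± 0.29, adjusted p = 0.39). Hspa1b is a near-identical copy of this gene, and the probe may measure both.

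A further test, chosen after these values were seen, asked which probes followed Hspa1a from array to array inside the 16 groups. Each of the other 12100 probes was fitted with limma by its 16 group means and a slope on Hspa1a, whose level on arrays where it was not detected is near background. Of the 69 other member probes, 6 rose and 1 fell with Hspa1a, against 0.512% and 0.165% of all probes. Dnajb1, the J-domain partner of inducible Hsp70, had the steepest slope of these, 0.30 ± 0.03 per log2 unit of Hspa1a (adjusted p = 7.9e-11). Hsph1 followed with 0.21 ± 0.04 (adjusted p = 9.5e-04) and Hspa1l with 0.19 ± 0.04 (adjusted p = 0.0044). The brighter Dnajb4 probe (0.19 ± 0.05), Hspe1 (0.12 ± 0.03) and the brighter Hspa8 probe (0.06 ± 0.01) passed with adjusted p-values of 0.034, 0.042 and 0.023. The dimmer probes of Dnajb4, detected on 7 arrays, and of Hspa8, detected on 64, had negative slopes (-0.07 and -0.10) and did not pass. A Dnajc19 probe detected on 7 arrays fell (-0.12 ± 0.03, adjusted p = 0.026). The Dnajc19 probe detected on all 64 arrays had a slope of 0.01 and did not pass. Hspb3 had a slope of -0.01 and did not pass.

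On 7 arrays, 4 wild type and 3 knockout, Hspa1a lay more than 1 log2 unit above its group mean. Dnajb1 and Hsph1 were above their own group means on all 7 of them, Hspa1l on 6 and Hspb3 on 3. On wild type ZT0 replicate 70, with the highest Hspa1a of all, Dnajb1 read 11.55 and stood 1.32 above its group mean, and Hsph1 0.76 above. At the other end, wild type ZT6 replicate 1, one of the widely spread arrays, had the lowest Hspa1a (4.53), with deviations from the group mean of -0.99 for Dnajb1, -0.99 for Hsph1 and -0.98 for Hspa1l.

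Only the slopes of Dnajb1 and Hsph1 held without any single array. Without wild type ZT6 replicate 1, 2 members rose, and Hspa1l, at an adjusted p of 0.056, was not among them. Without knockout ZT0 replicate 129, 3 rose. The count was 10, 11 and 12 without knockout ZT0 replicates 8 and 68 and wild type ZT0 replicate 70. Without the 4 widely spread arrays Dnajb1 and Hsph1 remained. In ZT 3, 9, 15 and 21 alone none passed, with 0.24 for Dnajb1 (adjusted p = 0.081), and in ZT 0, 6, 12 and 18 alone 2 did. Of all probes on the array, 0 rose in the first of these sets and 7 in the other, against 62 with all arrays. Without the 4 widely spread arrays 9 of all probes rose. Why these genes moved together from array to array was not tested.

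**Figure D4:**
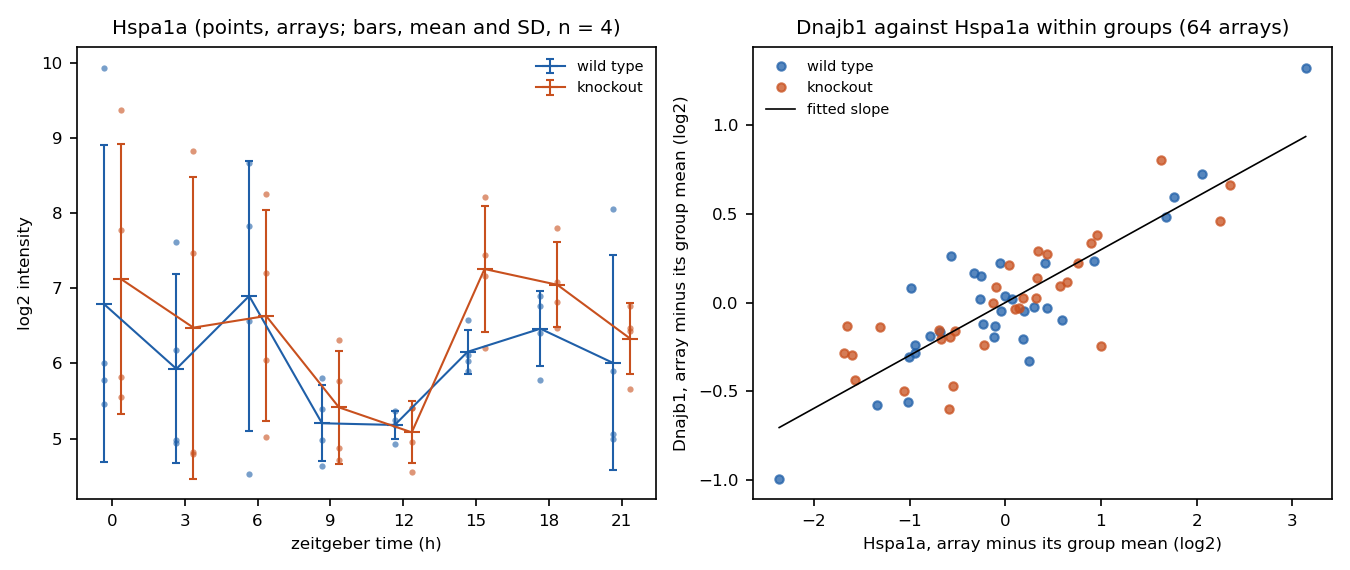
Left, log2 intensity of Hspa1a against zeitgeber time (h), with single arrays as points and the mean and SD of 4 as lines and bars. Right, deviation of Dnajb1 from its group mean against that of Hspa1a for the 64 arrays (log2), with the fitted slope of 0.30; the array at the upper right is wild type ZT0 replicate 70 and that at the lower left wild type ZT6 replicate 1.

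Of 50 related genes outside the symbol rule, heat shock factors and co-chaperones, 43 were measured. Their 24 h mean was higher in knockout for 5 and lower for 5, against 17% and 17.4% of all probes, so both counts lay below the background, and their median difference was -0.01. The co-chaperones that fell were Nudc (-0.38 ± 0.04, adjusted p = 6.4e-14), the Hsp90 partners Cdc37l1 (-0.22) and Fkbp4 (-0.22), Fkbp5 (-0.49 ± 0.09, adjusted p = 7.4e-06), and Trap1 (-0.16), the mitochondrial Hsp90. The risers were Tomm34 (0.21), Grpel1 (0.15), the nucleotide exchange factor of Hspa9, Bag4 (0.16), Sgta (0.18) and Hsf4 (0.24), which was detected on 12 of 64 arrays. In wild type 2 cycled: Fkbp5, a glucocorticoid target, with an amplitude of 0.45 ± 0.09 and a peak at ZT 17.9 (adjusted p = 0.0016), and Hsf2, a heat shock factor, with 0.36 ± 0.09 and a peak at ZT 19.9 (adjusted p = 0.049). None passed in knockout, and none differed in rhythm. Bag3 (0.01) and Stip1 (0.00) did not pass in the 24 h mean.

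Levels in whole hearts mix cell types, and fewer cells of a type cannot be told apart from less RNA per cell. Of the marker lists, 3 of 5 measured cardiomyocyte genes were lower in knockout (Myh6 with -0.09, Tnni3 with -0.21 and Ryr2 with -0.28), as were 4 of 6 endothelial and 4 of 4 myeloid genes, while 2 of 6 fibroblast genes were higher. Lower too were 1 of 5 smooth muscle and pericyte genes (Abcc9, -0.71), 1 of 4 red blood cell genes and 1 of 2 adipocyte genes. Over all probes 17.4% were lower and 17% higher, and with median scaling 6.81% and 24.5%. Marker calls under median scaling are not given here. The log2 of the summed intensity of the cardiomyocyte list ran from 16.45 to 16.64 in wild type and from 16.37 to 16.61 in knockout, that of the endothelial list from 11.64 to 12.04 and from 11.47 to 11.99, and that of the myeloid list from 11.19 to 12.29 and from 11.01 to 11.82. Tnnt2, Kdr, Cd68 and Csf1r of these lists did not pass the filter on dim probes. Of 5 skeletal muscle genes Acta1 was higher (0.78) and 3 were lower. The lower ones were Myl1 (-0.82) and, near background, Atp2a1 (-0.43) and Pvalb (-0.48), detected on 10 and 5 of 64 arrays. The part of these shifts in the chaperone differences was not tested.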

How the data were processed

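RNA of 64 whole hearts was measured on Illumina MouseRef-8 v2 bead arrays, per the labels. For each probe and array the authors deposited, per the file headers, the mean intensity of its beads and a detection p-value. A processed intensity per probe, deposited by the authors, served as an alternative; its values read as background subtracted and quantile normalized. The sources used here do not name the software. Background was removed with the normexp model from the detection p-values (limma 3.58.1, R 4.3.3, offset 16), followed by quantile normalization and log2. Precision is limited by 4 arrays per group. Probes were named from the platform annotation, and every member probe was kept.

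Limma fitted each of the 12101 kept probes by a mean, cosine and sine of 24 h per genotype plus the time set as a covariate, using all 64 arrays; Benjamini-Hochberg adjustment covered all probes. The fit was tested on simulated data. Members, related genes and marker lists were chosen with earlier results of these data known. Values were given for the smallest p per class and test, the 12 largest rises and falls, the 6 smallest p at 12 h and genes whose probes disagree. The 12 members given array by array, and the slope on Hspa1a, were chosen after values were seen. Alternatives covered background, scaling, the authors' processed values, the filter, 1 probe per gene, the time set, moderation, widely spread arrays and leaving out each array. Of the columns with per-sample values, 0 belonged to no sample. Protein and probe sequences were not used here.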

Additional observations from a re-analysis of the deposited data

Results flagged for a closer look

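Among 192 groups of 4 arrays of the 12 members given array by array, 16 (8.33%) held 1 array far from the other 3, where chance gives about 5%. The farthest was Hspa1a in wild type ZT0 replicate 70, at 9.93 against 5.46 to 6.00, and the same array read 13.05 for Hspb7 against 12.76 to 12.79. Wild type ZT21 replicate 159 was high for Dnajb1 (10.35 against 9.32 to 9.49) and Hspa1l (6.97 against 6.58 to 6.64), and knockout ZT3 replicate 167 for Dnajb1 (10.46 against 9.51 to 9.66). Wild type ZT3 replicate 164 was high for Hspe1 (10.7 against 10.29 to 10.30) and Cct3 (10.43 against 10.01 to 10.07).

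Wild type ZT12 replicate 30 was low for Hspa5 (6.39 against 7.35 to 7.43) and Dnaja4 (8.64 against 9.22 to 9.25). Hsph1 was low in wild type ZT6 replicate 1 (9.03 against 10.22 to 10.45) and high in wild type ZT18 replicate 85 (9.93 against 9.64 to 9.69). The others were Hspd1 in knockout ZT15 replicate 177 (12.04, low), Hspa1l in knockout ZT15 replicate 182 (8.19, low), Dnaja4 in wild type ZT18 replicate 143 (9.44, high), Dnajb9 in wild type ZT9 replicate 173 (10.25, low) and Hspb7 in wild type ZT15 replicate 196 (13.23, high).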

How the results depend on the processing

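The count of members higher in knockout (19) stayed between 15 and 23 under the alternatives other than ZT 3, 9, 15 and 21 alone, where it was 12. The count of members lower (11) stayed between 8 and 12 except for 2 with median scaling and 5 in ZT 3, 9, 15 and 21 alone. Leaving out single arrays gave 18 to 20 higher, 8 to 13 lower, 0 to 2 rhythmic in wild type, 0 rhythmic in knockout, 0 differing in rhythm, 0 with a 12 h component, and 2 to 12 rising and 0 to 2 falling with Hspa1a. In wild type (1 rhythmic) the count was 0 with median scaling, with no filter, with no time set term and in each time set alone, 2 without the 3 or without all 4 widely spread arrays, and 3 with the F test over 8 time means; that F test gave 11 in knockout. Members rising with Hspa1a (6) numbered 10 with the authors' processed values, 2 in ZT 0, 6, 12 and 18 alone, 0 in ZT 3, 9, 15 and 21 alone and 2 without the widely spread arrays. The count over all probes moved too, from 62 to 151 with the authors' processed values, and to 7 and 0 in these sets. It was 13 without the 3 and 9 without all 4 widely spread arrays. The 1 member falling was lost (0) without background correction, with median scaling, with detection on 32 arrays, with 1 probe per gene, in each time set alone and without the widely spread arrays. Over all probes 20 fell in the main fit, 3 without background correction, 2 with median scaling and 0 in each time set alone. With detection on 32 arrays 40 fell, and with 1 probe per gene 22. Without the 3 or all 4 widely spread arrays 1 and 0 fell. The cause of these changes was not tested, except that a single time set holds 32 arrays. Leaving out all 4 widely spread arrays was chosen after the data were seen. No direction of a called member turned under any alternative run. The 12 h component was not fitted in a single time set, and a slide block was not run because the headers name no slides. No paired analysis was possible because each sample number occurs once. Members near background, such as Dnaja3 probe ILMN_1215738, detected on 4 arrays, limit what the arrays can resolve.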

Other observations

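The clock gene Per2, a known target of BMAL1 with CLOCK and of heat shock factor 1, followed Hspa1a from array to array within groups. Its 2 probes had slopes of 0.22 ± 0.03 and 0.20 ± 0.03 per log2 unit of Hspa1a (limma, adjusted p = 7.5e-05 and 9.5e-04 over 12100 probes). Leaving out any single array gave slopes between 0.20 and 0.26 for the first probe and between 0.18 and 0.24 for the second, with adjusted p-values of at most 0.0015 and 0.016. Without the 4 widely spread arrays the slopes were 0.20 and 0.17 (adjusted p = 0.0039 and 0.041). In ZT 0, 6, 12 and 18 alone they were 0.23 and 0.17 (adjusted p = 0.045 and 0.099), and in ZT 3, 9, 15 and 21 alone 0.21 and 0.23 (adjusted p = 0.36 and 0.49). The fitted peak of Per2 in wild type was at ZT 13.7. Per2 was picked out after its values were seen. Of the related and marker genes, Fkbp5 (slope 0.14, adjusted p = 0.023), Ahsa2 (0.12) and the myeloid gene Cd163 (0.16, adjusted p = 0.042) passed too, and each lost its call without some single array.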
